A study of Mus musculus with 11 samples.

Results

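FMRP binds RNA in neurons, and its loss causes Fragile X syndrome. The RNA fragments pulled down with it were compared between cerebellum and cortex of mice at postnatal day 13, across all gene rows and with cortex alone as the reference. The comparison took the 2 libraries labelled cerebellum and the 3 libraries whose title and tissue label both name cortex, 5 of the 11 libraries of the series. A library whose title names cortex and whose tissue label names hippocampus was left out, and the hippocampus libraries entered alternative fits only. In both regions the frozen tissue was powdered under liquid nitrogen and irradiated 3 times with ultraviolet light (400 mJ, 254 nm) to crosslink proteins to RNA. FMRP was pulled down with its bound RNA, and the RNA freed by proteinase K was ligated to adaptors with a small RNA library kit. The labels give the same age and the same handling for both groups and no genotype, strain, sex or treatment beyond this. Nothing says that each library is a different animal, and the spread behind every p-value is that between these libraries and may be technical. Input RNA and pull-downs lacking FMRP were not analysed here. Whether a tissue holds more of an RNA or binds more of it therefore cannot be told apart.

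FMRP travels with polyribosomes and dendritic RNA granules, and is known for slowing the translation of long neuronal mRNAs, many of which encode synaptic scaffolds, channels, motors and chromatin proteins. Cerebellum at this age is dominated by granule cells, which are still being born and migrating inward, and its output neurons are the Purkinje cells. Cortex is built mainly of glutamatergic pyramidal neurons with spiny dendrites. In such bulk tissue, fewer cells of a type and less RNA per cell cannot be told apart.

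The sequences shown here come from the coding parts of genes with the smallest p-values in each direction, 2 per direction, and let a reader see what stretches rich in FMRP-linked motifs look like. Camk2a, whose p lay between those of Pde2a and Enc1, is not shown. Each sequence is the 60-base coding window, within 1 exon, that holds the most bases of the 4-base motifs that crosslinking studies have linked to FMRP: AGGA or TGGA, written together as one motif, and as a further motif ACTG or ACTT. Capitals mark the motif matches, on the coding strand only, where neighbouring motifs may overlap, and the letters are those of the mouse reference GRCm38 (GENCODE M21). The deposited counts give no position within a gene, so a window is a description of the mRNA and not a bound site. Fat2 and Grm4 had more fragments in cerebellum, and Pde2a and Enc1 had more in cortex.
Fat2, chr11:55309281-55309340, minus strand, exon 2: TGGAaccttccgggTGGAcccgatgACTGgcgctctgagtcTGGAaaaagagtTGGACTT
Grm4, chr17:27434770-27434829, minus strand, exon 9: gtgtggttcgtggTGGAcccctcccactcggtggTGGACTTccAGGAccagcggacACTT
Pde2a, chr7:101484563-101484622, plus strand, exon 4: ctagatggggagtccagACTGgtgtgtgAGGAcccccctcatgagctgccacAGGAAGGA
Enc1, chr13:97246608-97246667, plus strand, exon 2: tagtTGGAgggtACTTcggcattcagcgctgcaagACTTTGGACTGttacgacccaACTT
The Pde2a window holds 16 motif bases, and the other windows hold 19 (Grm4) or 23 (Fat2 and Enc1). Such windows are common: over the 1210 tested genes with a coding sequence the richest window held a median of 20 motif bases, 91.5% of the genes had one with at least 16 and 32.8% one with at least 23. Over the rows called higher the median was 20, with 96.4% of genes at 16 or more and 34.5% at 23 or more. Over those called lower it was 19, with 88.6% and 21.5%. These shares were not tested.

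The libraries differ in depth, and cortex is the shallower region. Total counts were 95454 and 197382 in cerebellum 1 and 2, and 30721, 55784 and 11898 in cortex 1, 2 and 3. Values are given as CPM, the share of a library's counts taken by a row, scaled to a library total of 1000000, so that a single count is worth 5.07 CPM in cerebellum 2 and 84.0 CPM in cortex 3. A count of 0 over a whole region allows up to 3 counts, or 10.2 CPM in cerebellum and 30.5 CPM in cortex. Such limits and all counting intervals cover counting error only, since reads amplified by PCR are not independent molecules. The cerebellum libraries were alike (Pearson r of log CPM 0.911 across 1246 rows, which are not independent replicates). In cortex the value was 0.682 between libraries 1 and 2, and 0.314 and 0.394 where cortex 3 was a member of the pair. Counts of every pair differed by more than sampling noise. Each library was counted as 1 replicate, a choice that this difference cannot settle, since technical repeats can also differ by more than sampling noise. Cortex 3 also stood apart in the share of counts on predicted gene names, 15.9% against 4.98% to 10.1% in the other libraries, and in the share of counts on the rows tested, 28.5% against 42.5% to 56.6%. Fragments on the ribosomal RNA row Rn45s took 0.0228% and 0.0356% of counts in cerebellum and 0.0586%, 0.154% and 0.168% in cortex. Rn45s (log2 fold change -1.98, adjusted p = 0.00259) and Rn28s1 (-1.42, adjusted p = 0.0255, edgeR's quasi-likelihood test for both), named after their values were seen, were themselves called lower in cerebellum. The part of this difference and of depth in the results below was not tested.

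Of 30986 rows, 1246 had enough counts to be tested, and 200 of them (16.1%) differed between the regions at an adjusted p under 0.05. Cerebellum was higher for 112 rows (8.99% of those tested) and lower for 88 (7.06%). Values of the regions did not overlap for 419 tested rows (33.6%), with cerebellum above cortex for 213 (17.1%) and below it for 206 (16.5%), and for 180 of the called rows, of which 112 were higher and 68 lower. The log2 fold change, cerebellum minus cortex, had a median of 2.12 over the rows called higher and -2.06 over those called lower, beside 0.04 over all rows tested. The filter on low counts, about 179.3 CPM in at least 2 of the 5 libraries whatever their region, shapes these figures. Of the 112 rows called higher, 81 had fewer than 2 cortex libraries at that level, as had 294 of all 1246 tested rows. Of the 88 called lower, 72 had fewer than 2 cerebellum libraries there, as had 494 of the 1246. Below, such called rows are said to have passed through cerebellum or through cortex, where this is given. Calls of a list without this statement may have passed in the same way. A row of this kind need not differ, and many were not called. The filter still admits rows through a high level in 1 region alone. Counts and medians over the tested members of a list are therefore descriptions and support nothing by themselves. A difference of more than 4-fold was seen for 63 rows called higher and 46 called lower, and the called differences nearest to 0 were 1.14 and -1.10 on the log2 scale. The count rests on the cerebellum pair: without cerebellum 1 it was 4 and without cerebellum 2 it was 14, where the single cerebellum library left is assumed to vary as the cortex libraries do. Without cortex 2 it was 105. With the libraries scaled by their totals alone, 67 rows were higher and 110 lower, because that scale moves the median of all rows to -0.20.

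**Figure D1:**
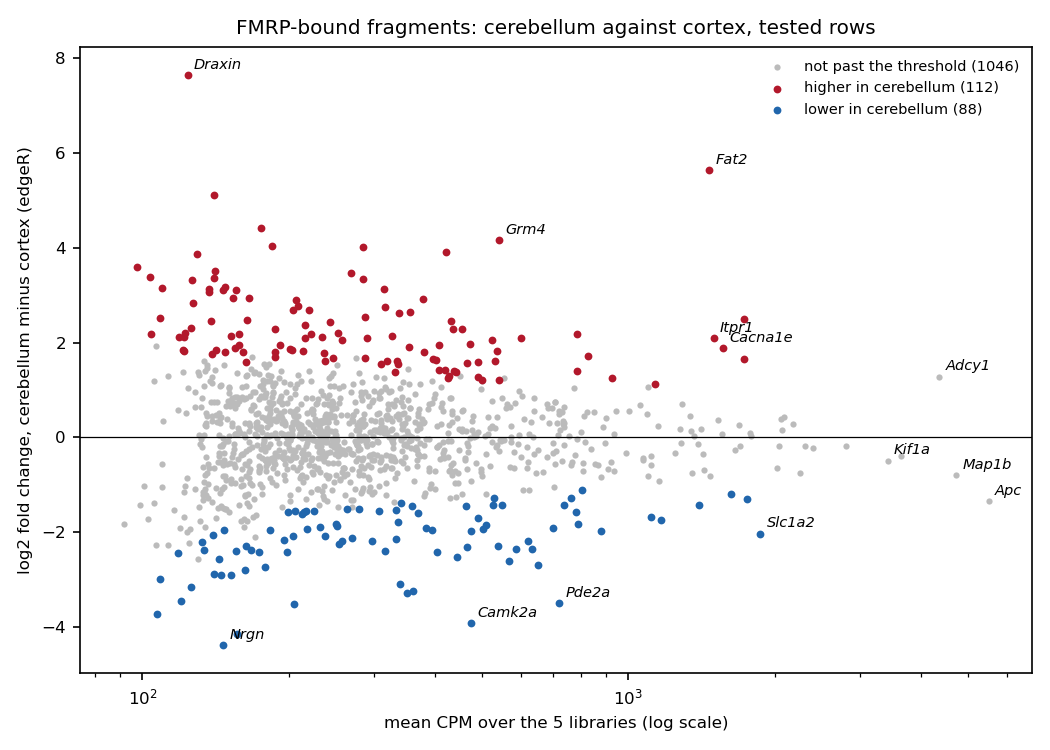
Log2 fold change of cerebellum over cortex (y axis, edgeR) against the mean CPM over the 5 libraries (x axis, log scale) for the 1246 tested rows, with 112 rows called higher in red, 88 called lower in blue and 1046 not past the threshold in grey. Called rows spread over the whole range of levels on both sides of 0, while the rows that took the most counts (Apc, Map1b, Adcy1, Kif1a) are grey.

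Rows that took the largest shares of counts were mostly long neuronal mRNAs, and several of them did not pass the test. These are shares of counts that are not divided by gene length, so they do not rank the RNAs by level. Adcy1, a calcium-stimulated adenylyl cyclase, led in cerebellum with 7700 and 5178 CPM, against 4525, 3155 and 1261 CPM in cortex (log2 fold change 1.28, SE 0.48, adjusted p = 0.0645, edgeR). Its values did not overlap between regions, yet the cortex libraries spread over more than their distance from cerebellum. Apc, a scaffold of Wnt signalling and microtubule ends, led in cortex with 11100, 8497 and 2858 CPM and had 2703 and 2412 CPM in cerebellum (-1.34, SE 0.52, adjusted p = 0.0736, edgeR). Both stood near the threshold: over the alternatives their adjusted p ran from 0.0339 to 0.998 (Adcy1) and from 2.42e-06 to 0.998 (Apc). Map1b, a microtubule-associated protein and a long-known FMRP target, had 3007 and 2928 CPM in cerebellum and 8008, 7762 and 1933 CPM in cortex, so that cortex 3 lay below cerebellum (-0.79, SE 0.50, adjusted p = 0.324, edgeR). Kif1a, a motor of synaptic vesicle precursors, and Ank2, an ankyrin of axons, overlapped between regions too. Little difference was measured for Map1a (-0.22), the ubiquitin ligase gene Huwe1 (-0.18), the motor gene Kif1b (-0.18), the cytoskeletal linker gene Macf1 (0.04) and the active zone genes Bsn (-0.18) and Pclo (0.15), each with an SE of 0.41 to 0.45. With such errors small differences were not detectable.

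Fragments higher in cerebellum were led by Fat2, a giant atypical cadherin of granule cells (chr11:55250609-55336564, minus strand). It had 4086 and 2786 CPM in cerebellum and 0, 35.9 and 420 CPM in cortex, where the highest value is 5 counts in cortex 3. All cerebellum values lay far above all cortex values, and the log2 fold change was 5.64 (SE 0.69, adjusted p = 7.73e-07, edgeR). DESeq2 gave 4.34 with an adjusted p of 0.22 for this row, and the call was also lost without the filter on low counts, where the adjusted p was 0.62, the highest over 15 alternatives. Grm4, a presynaptic metabotropic glutamate receptor of parallel fibres (chr17:27422387-27521403, minus strand), had 1351 and 1155 CPM against 130, 71.7 and 0 CPM (4.16, SE 0.53, adjusted p = 9.08e-07, edgeR). Unc5c, a netrin receptor that steers migrating granule cells (chr3:141465216-141834924, plus strand), had 1058 and 826 CPM against 65.1, 71.7 and 84.0 CPM (3.92, SE 0.55, adjusted p = 4.03e-06, edgeR). Its cortex values rest on 2, 4 and 1 counts, so their spread cannot be judged. Chd7, a chromatin remodeller needed in granule cell precursors, had 566 and 638 CPM against 32.6, 17.9 and 168 CPM (4.01, SE 0.67, adjusted p = 0.000124, edgeR). These 4 genes were the calls left when cerebellum 1 was taken out. Draxin, a secreted repulsive guidance protein, had 367 and 253 CPM in cerebellum and no count in any cortex library, which makes it at least 9.52-fold higher against the limit of 3 counts over the region. For genes with 1 to 3 cortex counts the pooled ratio carries a wide counting interval: it was 34.3 (95% interval 6.02 to 1367) for Il16, a cytokine precursor with a neuronal form in granule cells, 18.8 (5.09 to 157.3) for the glycosyltransferase gene Galnt15 and 13.9 (4.64 to 68.3) for Xkr7, of the XK family. Cntn2, an adhesion protein of growing parallel fibres, had 712 and 456 CPM against 0, 89.6 and 84.0 CPM (3.46, SE 0.63, adjusted p = 0.000262, edgeR). Zfp521, Arhgef33, Ptchd2, Ust and Unc5b were also among the 15 largest differences of this direction.

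**Figure D2:**
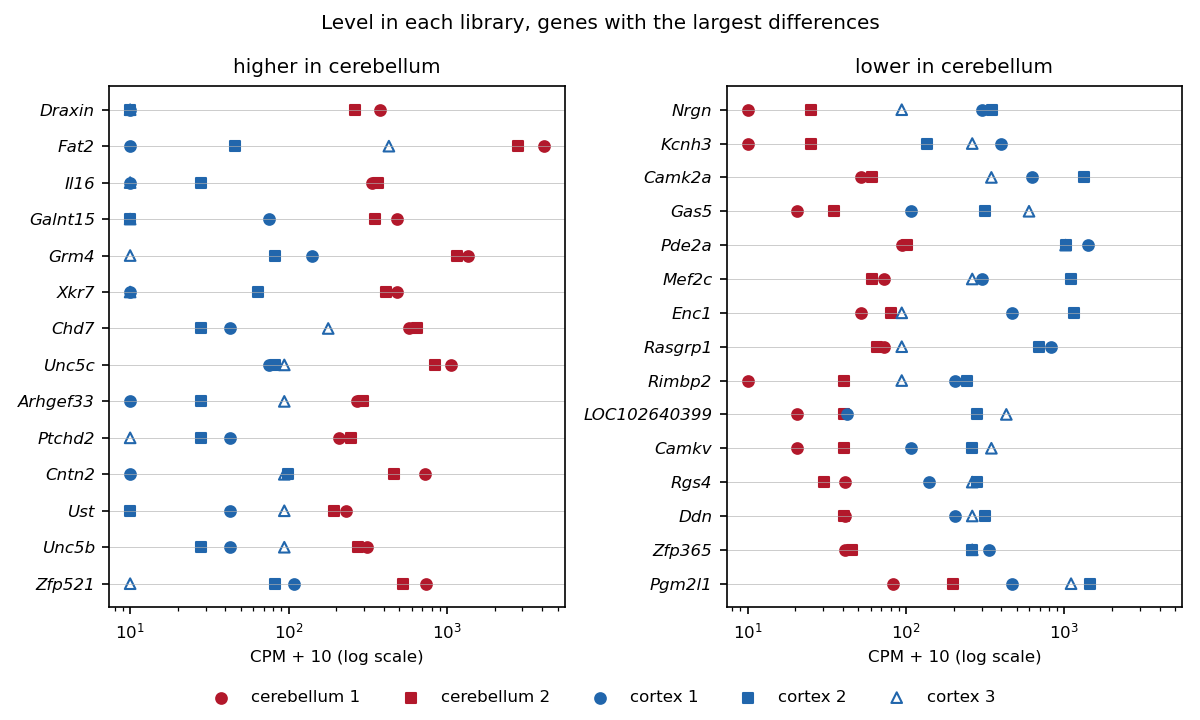
CPM plus 10 in each library (x axis, log scale) for genes among the 15 with the largest called and non-overlapping difference in each direction, higher in cerebellum on the left and lower on the right; circles, squares and the open triangle are the libraries, red for cerebellum and blue for cortex. Points at 10 are libraries without a count, such as all cortex libraries for Draxin, and the lowest cortex 3 triangles to the right of 10 stand for 1 count.

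Granule cell markers had the largest share called higher among the lists with at least 4 tested members. Of 25 genes in the list, 11 had enough counts to be tested, and 8 of these rose in cerebellum while 0 fell, with a median log2 fold change of 2.09, beside 8.99% of all tested rows called higher and a median of 0.04. Of the 8, 7 passed the filter through cerebellum, with fewer than 2 cortex libraries at its level. Besides Fat2, Grm4 and Il16 they were Zic1 (2.70), a transcription factor of granule neurons, Cadps2 (2.09), a secretion factor, Chn2 (3.07), a Rac regulator, Nfia (2.06), a maturation factor named after its value was seen, and Reln (1.42), the secreted guidance protein reelin. Reln lost the call in 11 of 15 alternatives. Kcnd2 (0.87), Grin2c (0.75) and Tiam1 (0.36) did not pass. Several defining genes did not pass the filter, because 1 of the cerebellum libraries also lay below its level, and were looked at after their values were seen. Gabra6, the GABA receptor subunit of granule cells, had 430 and 152 CPM in cerebellum and 0 in cortex (at least 7.95-fold higher). Cbln3, a synaptic organiser of the same cells, had 262 and 147 CPM against 0 (at least 6.05-fold), and Zic2 had 62.9 and 228 CPM against 0 (at least 5.71-fold). Neurod1 had 105 and 208 CPM against 0, 35.9 and 0 CPM. These genes thus have counts in both cerebellum libraries and at most 2 counts over cortex. Summed over the list, granule cell markers took 10916 and 9084 CPM in cerebellum and 1628, 1775 and 1429 CPM in cortex, with 0 members at 0 in either cerebellum library and 14, 7 and 16 at 0 in the cortex libraries. Without cerebellum 1, 2 of 11 tested members were called, and without cerebellum 2, 3 of 13, at medians of 3.10 and 2.37. Markers of dividing granule cell precursors had 1 tested gene, Ptch1, the hedgehog receptor, which was called higher (1.26, adjusted p = 0.0473, edgeR) but lost the call in 13 of 15 alternatives, DESeq2 and leaving out either cerebellum library among them, with fold changes from 0.75 to 1.67 and an adjusted p of up to 0.998.

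**Figure D3:**
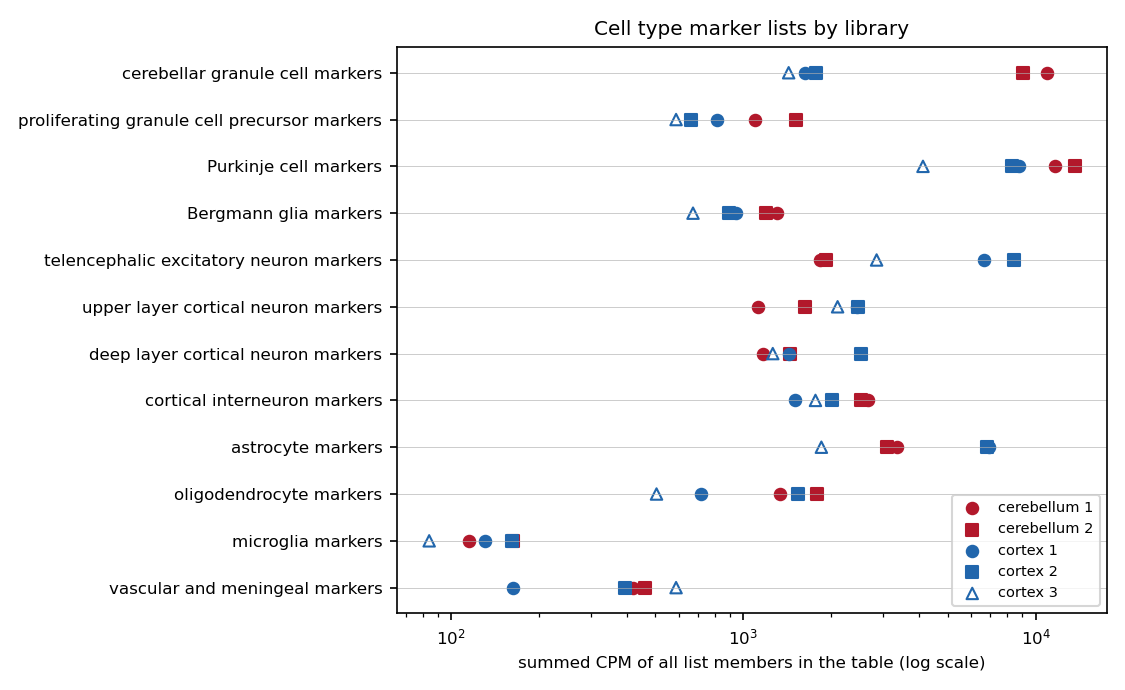
CPM summed over all members of each cell type marker list (x axis, log scale) in the 5 libraries, red for cerebellum and blue for cortex. Granule cell, granule cell precursor, Purkinje cell, Bergmann glia and cortical interneuron sums stand higher in both cerebellum libraries than in any cortex library. Telencephalic excitatory and upper-layer sums stand lower, while deep-layer, astrocyte, oligodendrocyte, microglia and vascular sums overlap between the regions.

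Purkinje cell markers had 7 of 12 tested members higher and 0 lower (median 1.43), beside 8.99% and 7.06% of all tested rows. Of the 7, 4 passed the filter through cerebellum. Itpr1, the inositol trisphosphate receptor that releases calcium in Purkinje dendrites (chr6:108213096-108551109, plus strand), had 2630 and 2786 CPM in cerebellum against 1042, 699 and 336 CPM in cortex. The regions were clearly apart (2.10, SE 0.43, adjusted p = 0.000787, edgeR), although cortex itself held much Itpr1. Among the other members called, Cacna1g, the T-type calcium channel, was higher by 1.72, Rgs8, a regulator of G-protein signalling, by 3.15, and Arhgef33, a guanine nucleotide exchange factor, by 3.88. Cacna1a, the P/Q-type channel, was nearest to the threshold (1.14, adjusted p = 0.0483, edgeR) and lost the call in 13 of 15 alternatives. Shank2 (0.53) and Atp2b2 (0.37) did not pass. Not all tested members rose: their log2 fold changes ran from -1.44 to 3.88. The cell type's most defining genes held few counts: Pcp2, chosen after its values were seen, had 41.9 and 45.6 CPM and 0 in cortex (at least 1.46-fold higher), and Calb1, chosen in the same way, overlapped between regions. Summed over all 32 members the list took 11702 and 13618 CPM in cerebellum and 8789, 8318 and 4118 CPM in cortex, a smaller gap than that of granule cells. With either cerebellum library left out the edgeR test called 0 of 13 tested members, at medians of 1.33 (without cerebellum 1) and 1.19.

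Axon guidance genes were called in both directions, 8 of 26 higher and 2 lower, beside 8.99% and 7.06% of all tested rows. Their median of 0.70 would be the same with Draxin at its lower bound. The 8 passed the filter through cerebellum and the 2 through cortex. Without cerebellum 1 or cerebellum 2, a single gene of the list was called, Unc5c. Receptors made up most of the calls. Unc5b, a further netrin receptor, was higher by 3.36, the semaphorin receptor gene Plxnb2 by 2.64 (796 and 628 CPM against 260, 89.6 and 0 CPM), and Sema6a, a transmembrane semaphorin of migrating granule cells, by 2.44. The ephrin receptor genes split: Ephb2 (2.28) and Ephb1 (1.80) were higher, while Epha4, whose values were 41.9 and 45.6 CPM in cerebellum and 293, 269 and 168 CPM in cortex, was lower (-2.28, SE 0.68, adjusted p = 0.0188, edgeR). Chn1 and Chn2 encode related Rac regulators, chimaerins, and moved in opposite directions. Chn2 had 325 and 274 CPM against 32.6, 53.8 and 0 CPM, and Chn1 had 52.4 and 30.4 CPM against 260, 376 and 0 CPM (-2.55, SE 0.72, adjusted p = 0.0107, edgeR). The 0 of cortex 3 makes Chn1 overlap between regions. Sema6a, Ephb1 and Ephb2 were named after their values were seen.

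Among atypical and protocadherins, 5 of 14 were higher and 1 lower, beside 8.99% and 7.06% of all tested rows. Of the 5, 3 passed the filter through cerebellum, and the 1 lower gene passed through cortex. Fat1, which like Fat2 is a giant cadherin, had 1729 and 1084 CPM in cerebellum and 391, 305 and 420 CPM in cortex (2.18, SE 0.44, adjusted p = 0.000651, edgeR), and Celsr3, a planar polarity cadherin of axon tracts, was higher by 1.94. Fat3 had 367 and 299 CPM against 1269, 592 and 588 CPM and did not pass (-1.11, adjusted p = 0.0677, edgeR). Pcdh10, a protocadherin, fell (-1.94), with 94.3 and 162 CPM against 944, 520 and 252 CPM. Synaptic adhesion genes had 4 of 36 higher and 2 lower, close to the shares over all tested rows. Of the 4, 3 passed the filter through cerebellum, and of the 2, 1 passed through cortex. The list's median of 0.12 turns to -0.11 when libraries are scaled by totals alone, a scale that moves the median of all rows to -0.20. Lrrtm3 (3.31), Cntn2, Cadm3 (1.92) and Igsf9b (1.66), an adhesion protein of inhibitory synapses, were higher, and the teneurin gene Tenm3 (-1.71) and the netrin-G ligand gene Lrrc4c (-1.50) lower.

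Ion channel genes were called in both directions, where 8.99% of all tested rows were called higher and 7.06% lower. Of 11 tested genes for voltage-gated calcium or sodium channels, 3 were higher and 0 lower. Cacna1e, the R-type calcium channel, had 3195 and 2285 CPM in cerebellum and 1172, 932 and 252 CPM in cortex (1.89, SE 0.43, adjusted p = 0.00202, edgeR), and the others were Cacna1a and Cacna1g. With libraries scaled by totals alone, 0 of the 11 passed. Of 20 potassium channel genes 4 were higher and 3 lower. The list's median of 0.09 turns to -0.16 under the same scaling, which moves the median of all rows to -0.20. Of the 4, 1 passed the filter through cerebellum, and all 3 lower genes passed through cortex. The higher ones include the fast Kv3 channel Kcnc1 (2.06) and the axonal Kv1 channels Kcna1 (1.61) and Kcna2 (1.27). Kcna1 lost the call in 11 of 15 alternatives and Kcna2 in 12. The lower ones include Kcnq3, a subunit of the M-current, with 189 and 152 CPM against 1074, 1165 and 588 CPM (-2.36, SE 0.43, adjusted p = 0.000262, edgeR), and Kcnh3, a channel of forebrain neurons. Kcnh3 had 0 and 15.2 CPM against 391, 125 and 252 CPM, a pooled ratio of 0.0458 (95% counting interval 0.00878 to 0.153). Kcnc1 and Kcnh3 were also members of the cell type lists. The calcium pump genes Atp2b3 (2.19) and Atp2b4 (-1.42) moved apart, and the intracellular channel gene Ryr2 (-0.34) did not pass.

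Pde2a, which the series title names, was the row with the smallest p among those lower in cerebellum. It encodes a phosphodiesterase that cGMP stimulates and that degrades both cAMP and cGMP (chr7:101421691-101512827, plus strand). It had 83.8 and 91.2 CPM in cerebellum against 1400, 1022 and 1009 CPM in cortex, from 8, 18, 43, 57 and 12 counts. Both groups were tight and far apart, also in cortex 3, and the log2 fold change of Pde2a was -3.49 (SE 0.47, adjusted p = 2.22e-06, edgeR). Cerebellum 1 and cortex 1, which share a title code, differed by -3.33. The 5 libraries with the title code as a replicate block gave -3.65 (adjusted p = 0.0115, edgeR). Their contrast rests on this same pair, with 1 residual degree of freedom, and is no separate comparison. That fit was among the 11 of 15 alternatives in which the call held. Without cerebellum 1 it was lost (adjusted p = 0.143), and likewise without cerebellum 2 (0.0694), at fold changes of -3.31 and -3.45, and over all alternatives the adjusted p ran up to 0.62 and the fold change from -3.68 to -2.79. The list of cyclic nucleotide phosphodiesterases had 4 tested genes of 21. Pde3a, an enzyme that cGMP inhibits, was called in the opposite direction, with 325 and 243 CPM against 65.1, 71.7 and 84.0 CPM (2.18, SE 0.60, adjusted p = 0.00989, edgeR). Its cortex values equal those of Unc5c above and rest on as few counts, so their spread cannot be judged. Pde3a passed the filter through cerebellum and lost the call in 9 of 15 alternatives, DESeq2 among them. Pde10a (-0.48) and Pde4d (-0.11) did not pass. Among 12 tested genes of cAMP and cGMP signalling only Nos1, the neuronal nitric oxide synthase upstream of cGMP, was called, at 388 and 421 CPM against 97.7, 89.6 and 84.0 CPM (2.36, SE 0.58, adjusted p = 0.0039, edgeR). Fmr1, the gene of FMRP, had too few fragments to test (10.5 and 45.6 CPM against 130, 161 and 252 CPM, from 26 counts).

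Telencephalic excitatory neuron markers had the largest share called lower among the lists with at least 4 tested members, with 7 of 11 tested members down, 0 up and a median of -3.09, beside 7.06% of all tested rows. Of the 7, 6 passed the filter through cortex, with fewer than 2 cerebellum libraries at its level. Camk2a, the alpha subunit of the CaMKII kinase, whose mRNA is carried into dendrites, had 41.9 and 50.7 CPM in cerebellum and 618, 1327 and 336 CPM in cortex (-3.92, SE 0.55, adjusted p = 4.53e-06, edgeR). Every cortex library stood several-fold above both cerebellum libraries. Nrgn, a calmodulin-binding protein of dendritic spines, had 0 and 15.2 CPM against 293, 341 and 84.0 CPM, a pooled ratio of 0.0348 (95% counting interval 0.00678 to 0.112). Mef2c, a transcription factor of cortical neurons, had 62.9 and 50.7 CPM against 293, 1094 and 252 CPM (-3.27, SE 0.59), and Rasgrp1, an exchange factor for Ras, had 62.9 and 55.7 CPM against 814, 681 and 84.0 CPM (-3.09, SE 0.57). The cortex 3 value of Rasgrp1 is 1 count and lies just above cerebellum. Grin2b, the NMDA receptor subunit of young forebrain, was lower by -1.58, and Ptk2b, a calcium-activated tyrosine kinase named after its value was seen, by -3.16. Slc17a7 (-0.17), the vesicular glutamate transporter that granule cells also use, Lingo1 (-0.16) and Dlgap1 (0.32) did not pass. The list's sum was 1833 and 1925 CPM in cerebellum and 6640, 8443 and 2858 CPM in cortex. Without cortex 1 or without cortex 2 fewer members were tested and the median was -1.47 or -1.64, with 5 of 9 or 4 of 7 lower. Without cerebellum 1 or cerebellum 2 the edgeR test called 0 of 15 or 0 of 13, at medians of -2.12 and -2.90. Layer markers followed with fewer calls, Epha4 and Rasgrf2 (-2.40) of 6 upper-layer genes and Foxp1 (-2.07) of 2 deep-layer genes. The upper-layer genes ran from -2.40 to 1.09 and the deep-layer genes from -2.07 to -0.13.

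CaMK and calmodulin-linked genes had 7 of 13 tested members lower and 1 higher (median -2.09), beside 7.06% and 8.99% of all tested rows. Of the 7, 2 are also excitatory markers, Camk2a and Nrgn. All 7 passed the filter through cortex. Camkv, a kinase-like protein of spines, had 10.5 and 30.4 CPM against 97.7, 251 and 336 CPM (-2.89, SE 0.91, adjusted p = 0.0258, edgeR). Camk4, a nuclear kinase abundant in granule cells, went the other way, with 911 and 405 CPM against 130, 287 and 168 CPM (1.80, SE 0.50, adjusted p = 0.00996, edgeR). The calmodulin gene Calm3 (-2.61) had 83.8 and 137 CPM in cerebellum and 228, 789 and 1597 CPM in cortex, so the cortex libraries of 1 title code carried most of the difference. Between cerebellum 1 and cortex 1 it differed by -0.87, and the list's median there was -0.63. Without cortex 2 the list had 2 of 8 lower, 1 higher and a median of -0.54. Calmodulin is encoded by several genes of similar sequence, and how fragments shared between such copies were counted is not given in the sources used here.

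Postsynaptic scaffolds and spine regulators had 8 of 30 tested members lower and 0 higher (median -0.43), beside 7.06% and 8.99% of all tested rows. Of the 8, 6 passed the filter through cortex. With either cerebellum library left out, edgeR called 0. Kalrn, an exchange factor that shapes spines, had 168 and 294 CPM in cerebellum and 977, 1129 and 925 CPM in cortex (-1.91, SE 0.42, adjusted p = 0.00164, edgeR). Dlg2, a scaffold of the PSD-95 family (-1.82), Lrrc7, densin (-1.97), and Sipa1l1, a Rap inhibitor of spines (-2.19), were lower in the same way, with no overlap between regions. Dlg4, which encodes PSD-95 itself, did not pass (-1.11, adjusted p = 0.0656, edgeR), although its 398 and 258 CPM lay below all of 1009, 699 and 672 CPM. Shank1 (0.19) and Shank2 (0.53) showed no lower value in cerebellum. Ionotropic glutamate receptor genes had 1 higher, Grik2, a kainate receptor (2.47), and 1 lower, Grin2b, of 12. GABA receptor genes had 0 of 4 past the threshold in edgeR, 0 at an unadjusted p under 0.05 and 0 in DESeq2, with values from -0.30 (Gabbr1) to 0.66. Gabra6, given above, was not among the 4, and alternatives that tested more of these genes called some: 1 higher of 14 with at least 10 counts in total, and 1 higher and 2 lower of 7 without cortex 3.

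Genes that had large differences without belonging to these groups include Enc1, an actin-binding protein of the ectoderm-neural cortex family (chr13:97241105-97253034, plus strand). It had 41.9 and 70.9 CPM in cerebellum against 456, 1147 and 84.0 CPM in cortex (-3.24, SE 0.58, adjusted p = 0.000256, edgeR), where the cortex 3 value is again 1 count. Pgm2l1, a glucose 1,6-bisphosphate synthase of brain, had 73.3 and 187 CPM against 456, 1452 and 1093 CPM (-2.69, SE 0.51). Ddn, dendrin, which is made in dendrites, had 31.4 and 30.4 CPM against 195, 305 and 252 CPM (-2.78, SE 0.75). Gas5, a noncoding host of small nucleolar RNAs, had 10.5 and 25.3 CPM against 97.7, 305 and 588 CPM (-3.51, SE 0.86). The noncoding RNAs Meg3 (-1.45) and Rian (-2.25) were also lower, 3 of 6 in that list, beside 7.06% of all tested rows. All 3 passed the filter through cortex. The call was lost for Meg3 in 11 of 15 alternatives, for Rian in 8 of 13 and for Gas5 in 5 of 12. Malat1 (0.46) overlapped widely. In the libraries whose titles begin with s, 0 noncoding RNAs of the list were lower and 1 was higher.

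Among glial markers the calls were few, where 8.99% of all tested rows were called higher and 7.06% lower. Slc1a2, the main astrocytic glutamate transporter, had 660 and 542 CPM in cerebellum and 3581, 4141 and 420 CPM in cortex (-2.03, SE 0.49, adjusted p = 0.00311, edgeR). Cortex 3 lay below both cerebellum libraries, and the other cortex libraries far above. Glul, glutamine synthetase, was lower without overlap (105 and 132 CPM against 553, 466 and 420 CPM, -1.79). Gfap, an astrocyte filament gene, had 199 and 198 CPM against 65.1, 71.7 and 0 CPM and did not pass (1.93, adjusted p = 0.0516, edgeR). Of the 5 tested astrocyte markers 2 were thus lower and 0 higher, and 1 of the 2, Glul, passed the filter through cortex. The list's sum overlapped between regions, 3363 and 3101 CPM against 6933, 6848 and 1849 CPM. Bergmann glia (3 tested) and oligodendrocyte (2 tested) markers had 0 past the threshold in edgeR and in DESeq2, and 1 of the 5, Gria4 (1.32), at an unadjusted p under 0.05. The microglia, vascular, choroid plexus and blood lists had 0 tested members. Of 5 tested cortical interneuron markers 3 were higher, and 1 of the 3 passed the filter through cerebellum. The 3 were Kcnc1, Erbb4 (2.13), a neuregulin receptor, and Reln. None of these defines interneurons alone, and Kcnc1 and Reln are also granule cell genes. The list's sum was 2671 and 2533 CPM in cerebellum against 1497, 2008 and 1765 CPM in cortex. The cause of this difference was not tested. Gad2, which all GABAergic neurons use, had -1.42 and did not pass (adjusted p = 0.183, edgeR).

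The list of known FMRP-bound mRNAs was tested almost whole, 107 of 116 genes. Of these 9 were higher, where 8.99% of all tested rows were, and 13 were lower, where 7.06% were, and the median was -0.18 beside 0.04. Of the 9, 0 passed the filter through cerebellum alone, and of the 13, 7 had fewer than 2 cerebellum libraries at its level. Those higher include Igsf9b, Cacna1e, Itpr1, Lrp8, a reelin receptor (2.30), and Apc2 (1.41). Those lower include Slc1a2, Kif5a, a kinesin (-1.43), Map2, the dendritic microtubule protein (-1.20), and Pde2a. Over 15 alternatives the call was lost in 12 for Map2, 11 for Apc2, 10 for Igsf9b and 9 for Kif5a. It was lost in 4 to 8 for Cacna1e, Itpr1, Lrp8, Slc1a2 and Pde2a. The list took 100460 and 98748 CPM in cerebellum and 159010, 137230 and 60598 CPM in cortex, so cortex 3 again stood apart. Microtubule genes and motors had 2 of 34 higher and 4 lower, and presynaptic genes 3 of 27 higher, Unc13c (1.26), Cadps2 and Syt2 (2.14), and 2 lower, Erc2 (-2.07) and Rimbp2 (-2.98). Unc13c lost the call in 11 of 15 alternatives and Syt2 in 10 of 14. Of 32 chromatin genes 2 were higher, Chd7 among them, and Chd5, a remodeller of neurons (-2.31), was lower. Chd3, its close relative, did not pass (-0.91, adjusted p = 0.139, edgeR).

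**Figure D4:**
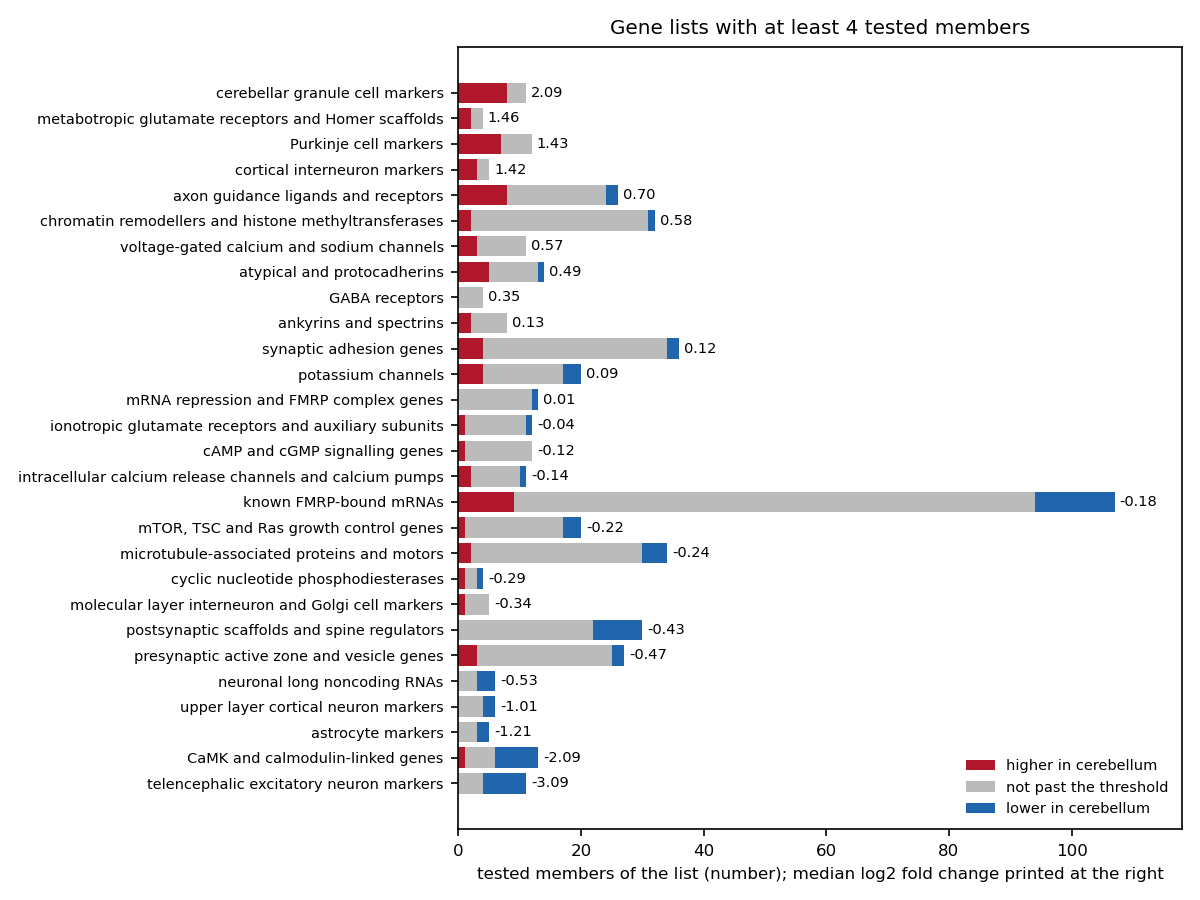
Number of tested members per gene list (x axis), split into called higher in cerebellum (red), not past the threshold (grey) and called lower (blue), with the median log2 fold change of the tested members printed at the right, for lists with at least 4 tested members. Granule cell markers (8 of 11 higher, median 2.09) and telencephalic excitatory markers (7 of 11 lower, median -3.09) stand at the ends, and known FMRP-bound mRNAs (107 tested) near the middle.

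Title codes and title prefixes differ between libraries, and the labels do not say what they stand for. Cerebellum 1 and cortex 1 share a code, cerebellum 2 has a code without cortex, and cortex 2 and 3 share a code without cerebellum, with a different prefix. Within the shared code, all 112 rows called higher had a higher value in cerebellum 1 than in cortex 1, and 87 of the 88 called lower had a lower one, where 51.3% of all tested rows were higher. In the remaining libraries, cerebellum 2 over the mean of cortex 2 and 3, the counts were 112 of 112 and 86 of 88, where 60.4% of all tested rows were higher. These libraries are the ones the calls were made from, so the counts describe how evenly the libraries carry a call. A fit of the 3 libraries whose titles begin with s, both cerebellum libraries and cortex 1, called 93 rows higher and 68 lower of 2654, with a single cortex library.

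**Figure D5:**
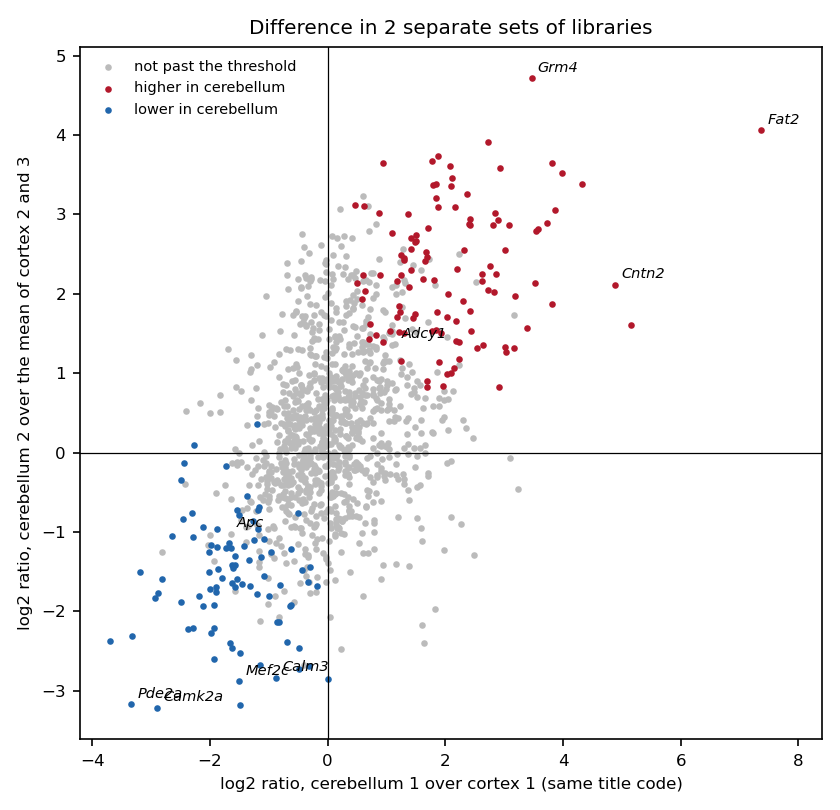
Log2 ratio of cerebellum 1 over cortex 1, which share a title code (x axis), against that of cerebellum 2 over the mean of cortex 2 and 3 (y axis), for the 1246 tested rows, coloured by call. Rows called higher lie in the upper right quadrant, and rows called lower lie in the lower left apart from a few near an axis; Calm3 lies much closer to 0 on the x axis than on the y axis.

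The mRNAs called in the 2 directions differed somewhat in length. Coding sequence of the main annotated transcript had a median of 3132 bases for the 110 rows called higher that have one, 2385 for the 79 called lower and 3375 for the rows not past the threshold. The 3′UTR medians were 2345.5, 1951 and 1785 bases. Coding GC content was 54.4%, 53.6% and 52.5%. Matches to AGGA or TGGA numbered 15.7, 16.9 and 15.9 per kilobase of coding sequence. For the second motif, ACTG or ACTT, they numbered 7.82, 7.58 and 8.35. These medians are descriptions over genes, without a test, and the motif densities were close in all 3 sets.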

How the data were processed

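The authors deposited whole-number counts of fragments per gene symbol for every library. Per the submitters' processing notes, Bowtie 0.12.7, Picard and the build mm10 were used. The sources used here do not give the counting program, annotation, use of strand, treatment of duplicates or filters, so overlapping, antisense or near-identical genes cannot be told apart. All 30986 rows name a gene (March2 occurs on more than 1 row), and 0 sample columns were unused.

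From the counts, CPM were computed on library totals. The test was edgeR 4.0.16 (R 4.3.3), quasi-likelihood, with TMM factors, filterByExpr by region (about 179.3 CPM in at least 2 libraries), 5 libraries without a covariate (3 residual degrees of freedom), and Benjamini-Hochberg adjusted p under 0.05 over 1246 rows. An approximate SE was taken as |log2 fold change| over the root of F. Pooled ratios have exact binomial 95% intervals. Ratios within title codes use a prior count of 2. The fit was tested on simulated counts. Symbols were matched to GENCODE M21 for positions and coding sequences (97.1% of tested rows).

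The comparison, the gene lists and the rule for named genes were chosen with earlier results of these data known. The rule takes the 15 largest called and non-overlapping differences per direction, up to 5 called members per direction and 3 others of each list, the 8 highest rows per region, Pde2a, Fmr1 and rows of little change. Some genes that meet it are not reported here. Alternatives covered scaling, filter, tool (DESeq2 1.42.0), blocks, hippocampus libraries and leaving out each library. The labels do not say that a title code marks a shared animal, batch or day, and only 1 code holds both regions, so codes were not taken as pairs.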

Additional observations from a re-analysis of the deposited data

How the results depend on the processing

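The count of 200 (112 higher, 88 lower) depended on filter, tool and libraries. DESeq2 called 90 (46 and 44). With library totals alone 67 were higher, within 177 calls. Without the filter on low counts edgeR called 0 (0 and 0) of 27688 rows, with 1747 at an unadjusted p under 0.05, and with at least 10 counts in total it called 30 (18 and 12) of 7962. A fit of 9 samples with hippocampus called 114 (69 and 45) without a replicate block and 79 (38 and 41) with the title code as the replicate block. In it hippocampus 1 and 2, which share a title code, were summed to 1 sample. Cortex 2 and 3 and hippocampus 4 and 5, which also share a code, were kept as separate samples. The 5 libraries with the replicate block called 6 (5 and 1), all shared with the main result, on 1 residual degree of freedom, where the contrast rests on cerebellum 1 against cortex 1. Leaving out each library in turn gave 4 to 268 calls, 4 to 136 higher and 0 to 132 lower, lowest without a cerebellum library and highest without cortex 1. The cause was not tested. Size factors of the DESeq2 kind gave 191, leaving out predicted names 212 and the libraries of s titles 161. No named result reversed, but calls of named genes were lost in some alternatives, also where this is not stated above. Of the main calls that an alternative tested, all kept their sign except 1 of 200 in each fit with a replicate block and 2 of 191 in the libraries of s titles. Cortex held 98403 counts in all; how depth, the number of libraries and their spread each limit the calls was not tested.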

Other observations

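Single genes outside the lists also differed. They were chosen after their values were seen and stand for no group. Zbtb20, a transcription factor gene, had 974 and 876 CPM against 326, 341 and 168 CPM in cortex (log2 fold change 1.82, adjusted p = 0.00227, edgeR), Zfp423, which is mutated in disorders of the cerebellar vermis, had 293 and 345 CPM against 65.1, 35.9 and 0 CPM (3.18, adjusted p = 0.00103, edgeR), and Nfib had 555 and 638 CPM against 163, 233 and 504 CPM (1.43, adjusted p = 0.0414, edgeR). Mtss1, a membrane-bending protein of Purkinje dendrites, was higher by 3.13, and Trpm3, a cation channel, by 1.98. Glce (3.11) and Ndst3 (3.10), which encode enzymes of heparan sulfate synthesis, were called higher. Cnr1, the cannabinoid receptor of parallel fibre and interneuron terminals, had 995 and 588 CPM against 293, 323 and 252 CPM (1.59, adjusted p = 0.00996, edgeR).

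Single rows called lower in cerebellum were chosen in the same way. Gsk3b, a kinase of Wnt signalling, had 157 and 182 CPM against 260, 860 and 336 CPM (-1.45, adjusted p = 0.0416, edgeR). The 14-3-3 genes Ywhag (-1.94) and Ywhaz (-1.58) overlapped between regions. In each of these 3 genes cortex 2 held the highest value.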
